A study of Mus musculus with 8 samples.

Results

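The immediate early genes of the AP-1 and Egr classes are described here by 10 genes: Fos, Fosb, Jun, Junb, Jund, Egr1, Ier2, Dusp1, Atf3 and Nr4a1. All probes whose gene name was one of these symbols or an older alias were taken, which gave 12 probes of 41048 on the array, with a pair each for Junb and Ier2. All 10 genes entered the test, among 22897 genes and unnamed probes. Fos passed the filter on dim probes only through KO cells of secondary recipients and Jun only through WT cells of secondary recipients, so that both had to differ between some groups.

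The study transplanted mouse haematopoietic stem cells (HSC) and measured RNA of the donor-derived HSC, sorted by flow cytometry, on 8 one-colour Agilent arrays. There were 4 groups of 2 arrays each: E47 knockout (KO) cells from secondary recipient mice, wild-type (WT) cells from secondary recipients, KO cells from primary recipients and WT cells from primary recipients. E47 is a transcription factor encoded by Tcf3 that binds E-box sequences. The sources used here do not state the kind of knockout allele, the strain, the age of the mice, the sorting markers or the number of cells. All RNA was amplified as cDNA by a global PCR before labelling with Cy3. The labels do not say whether the 2 arrays of a group came from separate mice, so a p-value here covers the spread between arrays, and that spread may be technical.

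Immediate early genes are switched on within minutes of a stimulus without new protein synthesis, by kinase cascades that act on factors already bound at their promoters. The Fos and Jun proteins pair through leucine zippers to form AP-1, Egr1 is a zinc finger factor, and Dusp1 dephosphorylates the MAP kinases that drive the response. In mouse HSC, Egr1 and Junb are known as restraints on proliferation. The same genes are also known to respond to the dissociation and sorting of cells, and transcripts made at that step cannot be told apart here from those present in the animal. In RNA from sorted pools, fewer cells of a type and less RNA per cell cannot be told apart either.

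The arrays differed in brightness, and this touches every value below. Their 75th percentile of signal, to which levels were scaled, was 664 and 431 in KO and 847 and 729 in WT cells of secondary recipients, and 357 and 19.6 in KO and 321 and 36.6 in WT cells of primary recipients. On replicate 2 of KO and of WT cells from primary recipients 35.4% and 41.9% of spots were well above background, against 72.2% to 90.7% on the other 6 arrays. The 4 WT arrays lay on 1 slide, the KO arrays of secondary recipients on another and those of primary recipients on the third, so that an effect of genotype cannot be told apart from one of slide. The probe that stands for Tcf3 gave 1664 and 167 in KO and 1778 and 1773 in WT cells of secondary recipients, and 83.8 and 101 in KO and 104 and 1278 in WT cells of primary recipients. No source used here says whether this probe is inside the deletion, so it checks nothing about the labels.

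The HSC label was read on 16 markers. All 16 were well above background on both KO arrays of secondary recipients, 15 on both WT arrays of secondary recipients, 16 and 8 on the KO arrays and 15 and 10 on the WT arrays of primary recipients. Of all genes tested, 99.2% and 93.7% were well above background on the KO and 95.4% and 93.8% on the WT arrays of secondary recipients. In primary recipients the shares were 89.2% and 50.6% on the KO and 90.4% and 58.7% on the WT arrays. The marker counts lie near these shares and so do not check the label. Summed signal over 18 granulocyte and monocyte markers was 12272 and 16400 in KO and 17739 and 11833 in WT cells of secondary recipients, against 84337 and 312933 in KO and 81577 and 392076 in WT cells of primary recipients. In secondary against primary recipients over both genotypes, the scaled change was below that of the median gene for 14 of the 17 tested and above it for 3. The neutrophil gene S100a8 was 80.5 and 2.05 in KO and 2.38 and 2.78 in WT cells of secondary recipients, against 11107 and 62443 in KO and 10769 and 70779 in WT cells of primary recipients. The part of such cells in the differences between recipients described below was not tested.

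**Figure D1:**
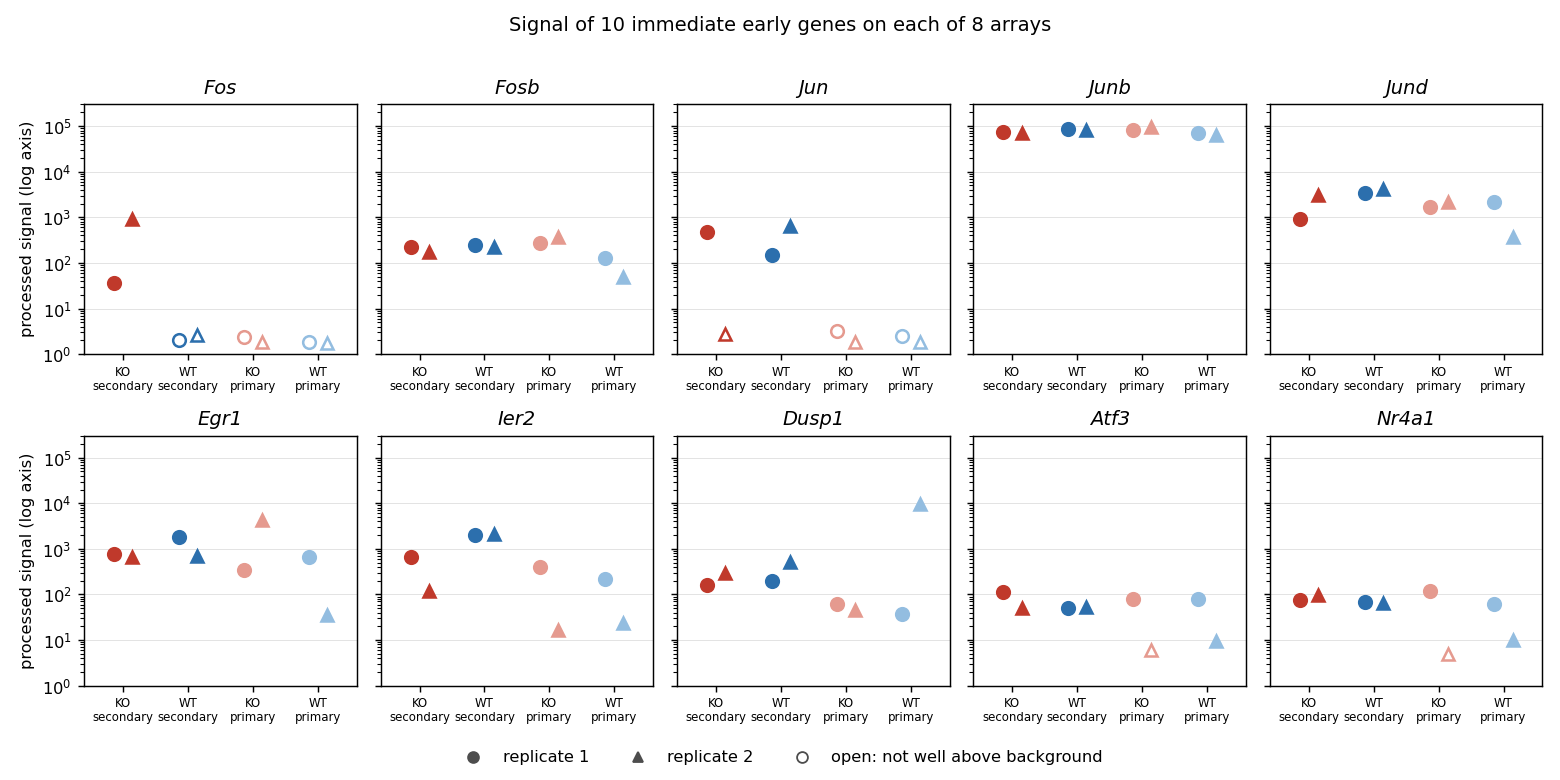
Processed signal (log axis) of the probe that stands for each of the 10 genes, in KO and WT cells of secondary and primary recipients; circles are replicate 1, triangles replicate 2, and open symbols were not well above background. Fos is filled only in KO cells of secondary recipients, Jun is filled on 3 arrays of secondary recipients and Junb lies between 65286 and 94471 on all 8 arrays.

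Fos and Jun are shown first because their probes were dark on all 4 arrays of primary recipients and lit on different arrays of secondary recipients. Their promoters, each from 250 bases before to 50 bases after the start of the gene, are given from RefSeq on build GRCm38.p6, at chr12:85473640-85473939 on the plus strand for Fos and at chr4:95052173-95052472 on the minus strand for Jun. Capitals mark matches to the motifs searched, read on both strands.
Fos promoter: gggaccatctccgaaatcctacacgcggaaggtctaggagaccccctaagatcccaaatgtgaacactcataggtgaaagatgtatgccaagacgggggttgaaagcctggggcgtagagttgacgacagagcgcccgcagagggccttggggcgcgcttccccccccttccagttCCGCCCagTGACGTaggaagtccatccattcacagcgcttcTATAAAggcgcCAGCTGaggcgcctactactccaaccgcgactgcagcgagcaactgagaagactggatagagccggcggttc
Jun promoter: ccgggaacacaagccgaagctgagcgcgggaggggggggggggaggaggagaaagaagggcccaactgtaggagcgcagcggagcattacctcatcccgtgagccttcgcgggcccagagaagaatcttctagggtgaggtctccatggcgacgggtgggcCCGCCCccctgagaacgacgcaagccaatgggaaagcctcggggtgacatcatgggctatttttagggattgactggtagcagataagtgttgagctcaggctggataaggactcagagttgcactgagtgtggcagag
The Fos window held an SP1 box (GGGCGG, on the minus strand) whose first base lay at -74, the core TGACGT of the cAMP response element at -66, a TATA box (TATAAA) at -33 and the E-box CAGCTG, an E protein motif, at -22. The Jun window held an SP1 box at -89 and none of the other motifs. Of 27025 mouse promoters of this length, 35.9% held the SP1 box, 7.64% the core TGACGT, 14.2% the TATA box and 16.1% CAGCTG. The promoters of 8 of the 10 genes were searched. The E-box CAGCTG stood in 3 of these 8 (Fos, Junb and Jund), the E-box CAGGTG in 1 (Fosb, against 20.0% of all promoters) and the full element TGACGTCA in 1 (Dusp1, against 1.88%). The AP-1 site TGANTCA, present in 7.93% of all promoters, and the serum response CArG box, present in 1.57%, matched none of the 8 windows. The core CCGGAA of ETS factors stood in 1 of the 8 (Nr4a1, against 15.2%). The core TGACGT was added to the motifs after the values were seen. A match, or the lack of one, describes these letters in this window only. Bases before the window, and Egr1 and Ier2, were not searched.

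Fos, the founding partner of Jun in AP-1, was lit in KO cells of secondary recipients and in no other group. Its probe (chr12:86366053-86366112, mm8, plus strand) gave signals of 35.9 and 904 in KO cells of secondary recipients, against 2.05 and 2.67 in WT cells of secondary recipients. In primary recipients it gave 2.40 and 1.82 in KO cells and 1.87 and 1.78 in WT cells, none of them well above background. By signal, both KO arrays of secondary recipients thus lay above the other 6. By scaled log2 level, their replicate 1 at -4.21 lay below KO replicate 2 of primary recipients at -3.43, a value at background. The lowest level called well above background was -1.20 on that dim array and -2.18 on WT replicate 2 of primary recipients. A Fos level of -4.21 could not have been called on either. The lit arrays themselves stood far apart, by 5.29 on the log2 scale relative to the median gene. That gap between replicates was larger than those of 96.0% of genes tested in that group, where the median gap was 1.09.

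The probe was spotted 10 times on each array, which separates spotting error from the gap between arrays. All 10 Fos spots were well above background on both KO arrays of secondary recipients. The spots kept after outlier marking ran from 32.3 to 38.8 on replicate 1 and from 882 to 935 on replicate 2. The coefficient of variation between spots was 5.56% and 1.76% on these arrays. On the 6 dark arrays the highest kept spot was 4.08, on WT replicate 2 of secondary recipients.

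Fosb, a close relative of Fos, was well above background on all 8 arrays (chr7:18461650-18461709, mm8, minus strand). Its signal was 228 and 172 in KO and 242 and 222 in WT cells of secondary recipients, and 273 and 375 in KO and 126 and 48.3 in WT cells of primary recipients. Unlike Fos it was lit everywhere, and its replicates in secondary recipients differed little, by 0.23 in KO and 0.03 in WT cells on the relative log2 scale.

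Jun, the other founding AP-1 subunit and a substrate of the kinase JNK, was lit on 3 of the 4 arrays of secondary recipients. Its probe (chr4:94541191-94541250, mm8, minus strand) gave 485 and 2.71 in KO cells and 152 and 653 in WT cells of secondary recipients. In primary recipients it gave 3.23 and 1.84 in KO and 2.44 and 1.80 in WT cells, none well above background. Replicate 2 of KO cells from secondary recipients was thus the array with the highest Fos signal and no Jun signal above background, while replicate 1 had 35.9 for Fos and 485 for Jun.

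Jun was also spotted 10 times. The kept spots of the KO arrays of secondary recipients ran from 445 to 512 on replicate 1 and from 1.56 to 7.34 on replicate 2, where 0 of the 10 spots were well above background. In WT cells of secondary recipients they ran from 140 to 165 on replicate 1 and from 626 to 689 on replicate 2. The gap between the KO replicates, 7.04 on the relative log2 scale, exceeded that of 98.8% of genes tested in that group.

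**Figure D2:**
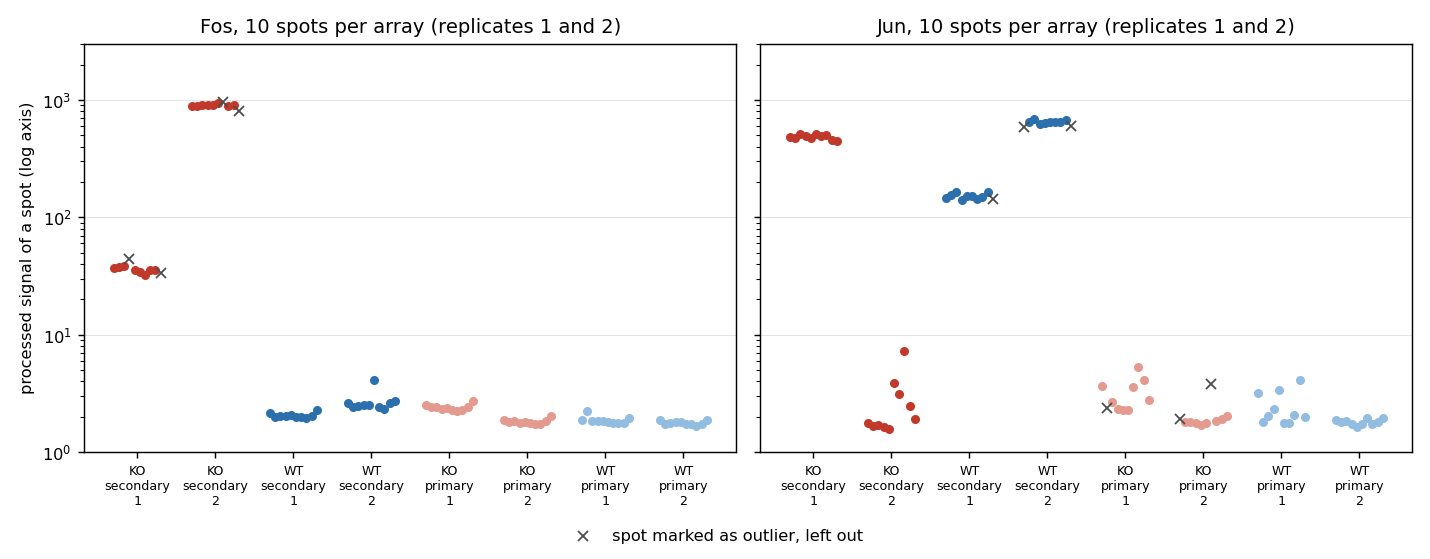
Processed signal (log axis) of each of the 10 spots of the Fos and Jun probes on every array, with the replicate number under each group and crosses for spots marked as outliers and left out. The spots of a lit array lie close together (Fos 882 to 935 on KO secondary replicate 2), while arrays of 1 group lie far apart (Fos 35.9 and 904, Jun 485 and 2.71).

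Junb, an AP-1 subunit that opposes Jun in many settings, was read by a pair of probes that disagreed. The brighter one (chr8:87867049-87867108, mm8, minus strand) stands for the gene under the rule of the brightest probe. It gave 72744 and 69903 in KO and 87027 and 80863 in WT cells of secondary recipients, and 83478 and 94471 in KO and 69997 and 65286 in WT cells of primary recipients. These unscaled signals moved little even on the dim arrays, so that its scaled level followed the brightness of the array. The dimmer probe (chr8:87867087-87867146) gave 29.5 and 113 in KO and 129 and 159 in WT cells of secondary recipients, and 98.8 and 2.19 in KO and 137 and 8.26 in WT cells of primary recipients.

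The Junb probes overlap by 22 bases, and a stretch of the brighter one sets it apart. The shared bases and a 30-base stretch of the brighter probe that includes its run of alternating T and G, in capitals, read as follows.
Shared by both Junb probes: ttcgtgtctaaagtctatttta
30-base stretch of the brighter Junb probe: gatgtgttTGTGTGTGTGTGTttgactttt
Over the 6 arrays where both were well above background, the brighter probe, which lies nearer the 3′ end, exceeded the other by 9.61 on the log2 scale. Over 241 pairs of overlapping probes of 1 gene each, lit together on at least 6 arrays, the median absolute gap was 0.77, and 2 pairs, Junb included, differed by more than 8. A run of 11 such bases was looked for on the whole array after these values were seen. It stood in 11 other probes, whose mean rank of signal on the arrays had a median at the 99.3 percentile and a lowest value at 75.4, with 6 of 11 in the top 1%. The brighter Junb probe stood at the 99.9 percentile and the dimmer one at 49.2. The part of the run in the signal was not tested.

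**Figure D3:**
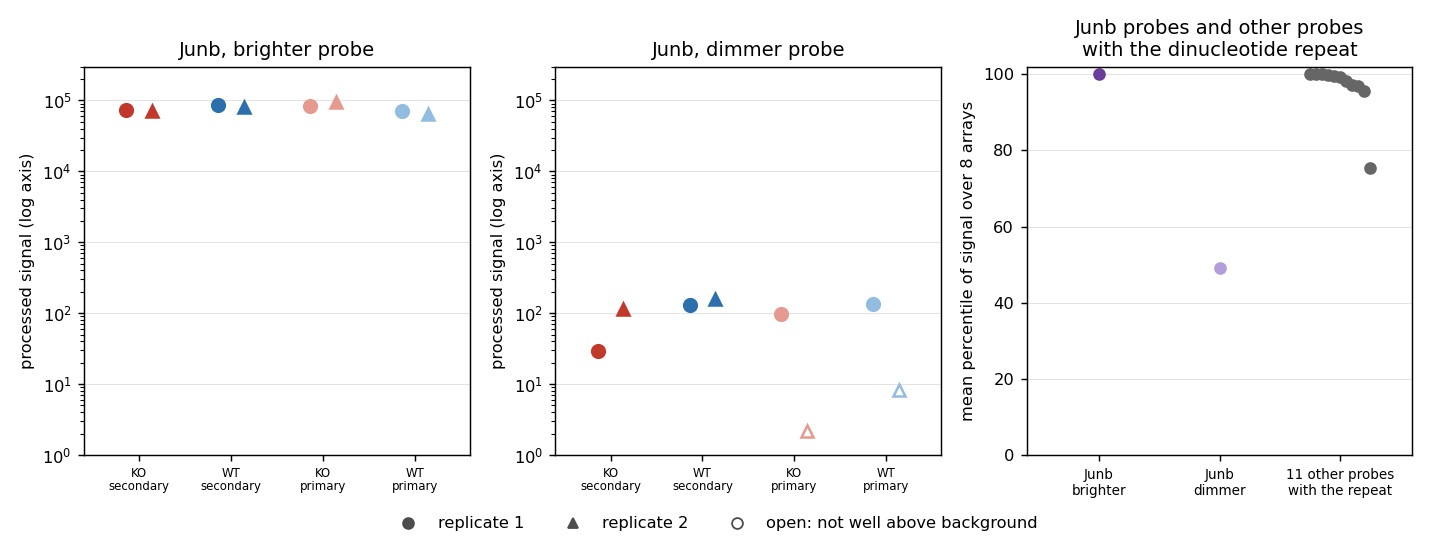
Signal (log axis) of the brighter and the dimmer Junb probe in each group, with circles for replicate 1, triangles for replicate 2 and open symbols for values not well above background, and the mean percentile of signal over 8 arrays of both probes and of 11 other probes that hold the same dinucleotide repeat. The brighter probe stays near the top of the axis on all arrays, and 10 of the 11 other probes lie above the 95 percentile.

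Jund, the Jun relative that is usually present before stimulation, was well above background on all 8 arrays (chr8:73629526-73629585, mm8, plus strand). Its signal was 907 and 3143 in KO and 3354 and 4134 in WT cells of secondary recipients, and 1660 and 2207 in KO and 2136 and 369 in WT cells of primary recipients. On the scaled log2 scale the KO and WT arrays overlapped in both kinds of recipient.

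Egr1 was well above background on all 8 arrays, and its highest value stood on 1 dim array. Its signal was 754 and 654 in KO and 1856 and 688 in WT cells of secondary recipients. In primary recipients it was 338 and 4187 in KO and 661 and 35.6 in WT cells. The gap of 7.07 between the KO replicates of primary recipients, on the relative log2 scale, exceeded that of 97.9% of genes tested in that group, where the median gap was 1.59.

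Atf3, a stress-induced factor of the ATF family that pairs with Jun proteins, was low on all 8 arrays (chr1:192871283-192871342, mm8, minus strand). Its signal was 115 and 51.5 in KO and 49.7 and 51.9 in WT cells of secondary recipients, and 77.6 and 5.99 in KO and 81.4 and 9.58 in WT cells of primary recipients. The value of 5.99 was the only one not well above background. Scaled to the array it was similar within each group, with replicate gaps of 0.22 to 0.52 relative to the median gene. The gap of KO cells of primary recipients, 0.26, includes the value at background.

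Nr4a1, the orphan nuclear receptor Nur77, resembled Atf3 (chr15:101102674-101102733, mm8, plus strand). Its signal was 76.5 and 98.2 in KO and 67.7 and 63.3 in WT cells of secondary recipients, and 120 and 4.88 in KO and 62.7 and 10.04 in WT cells of primary recipients. Only the value of 4.88 was not well above background.

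Ier2, a nuclear protein of the immediate early response, was highest in WT cells of secondary recipients on both of their arrays. Its brighter probe (chr8:87549656-87549690, mm8, minus strand) gave 653 and 118 in KO and 1975 and 2104 in WT cells of secondary recipients. In primary recipients it gave 402 and 16.6 in KO and 213 and 23.5 in WT cells. On the scaled log2 scale the levels were -0.02 and -1.86 in KO and 1.22 and 1.53 in WT cells of secondary recipients, and 0.17 and -0.24 in KO and -0.59 and -0.64 in WT cells of primary recipients. The WT arrays of secondary recipients lay above the other 6, and KO of secondary recipients overlapped both primary groups. The other Ier2 probe, 197 bases away, stayed dark on all 8 arrays, with signals of 1.92 to 7.60.

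Dusp1, the nuclear MAP kinase phosphatase, was well above background on all 8 arrays (chr17:26233451-26233508, mm8, minus strand). Its signal was 162 and 292 in KO and 199 and 521 in WT cells of secondary recipients. In primary recipients it was 62.0 and 45.5 in KO and 37.3 and 9761 in WT cells. The value of 9761, on the dim replicate 2 of WT cells, was the highest of the 8, and the gap between those replicates, 10.74 on the relative log2 scale, exceeded that of 98.7% of genes tested in that group. Egr1 and Dusp1 were thus each very bright on 1 dim array of primary recipients, and not on the same one.

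KO and WT cells of secondary recipients were compared to ask which genes differ without E47 after a second transplantation. Fos was at least 25.0-fold higher in KO cells, and at least 18.3-fold relative to the median gene, which stood 0.45 higher in KO on the log2 scale. The bound sets the mean of the KO arrays against the lowest signal called well above background on each WT array, and it was 4.02-fold without KO replicate 2 and 156-fold without KO replicate 1. limma, which tests each gene on the log2 scale with a spread estimate shared across genes, gave an unadjusted p of 0.0121 and an adjusted p of 0.833 for Fos, which does not pass the threshold of 0.05. The fitted change of Fos, which takes the WT signals at background as they are, was 6.38 (SE 2.07), and it was 3.79 without KO replicate 2 and 9.004 without KO replicate 1. Ier2 lay in the other direction, with a relative log2 change of -2.77 (SE 1.02, n = 2 arrays a group, limma unadjusted p = 0.0552, adjusted p = 0.938). Jun stood at -3.11 (SE 2.41), a value set by the dark KO array. It turned to 0.47 when KO replicate 2 was left out.

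The other 7 members differed less in secondary recipients. Their relative changes were -0.13 for Fosb, -0.13 for Junb, -1.04 for Jund, -0.59 for Egr1, -0.47 for Dusp1, 0.70 for Atf3 and 0.51 for Nr4a1. None of the 10 members passed limma with Benjamini-Hochberg adjustment, and none of the 22897 genes did (0%, lowest adjusted p = 0.757). An unadjusted p under 0.05 was found for 5.38% of genes, 3.69% higher and 1.69% lower in KO, and for 1 of the 10 members, Fos. Fos entered the test only through these KO cells, so its p-value and its separation are no independent evidence of a change. By scaled level, 4 members had both KO arrays above both WT arrays (Fos, Fosb, Atf3 and Nr4a1), against 34% of all genes, and 1 had both below (Ier2), against 12.3%. Relative to the median gene of each array Fosb left the first group, which then held 3 members against 25.2% of all genes. These shares lie near the background.

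KO and WT cells of primary recipients were compared to ask the same after a first transplantation, and none of the 10 members passed limma there. Fos and Jun were not above background on any of the 4 arrays, which allows no fold. The largest changes were those of Dusp1 at -3.42 (SE 3.23), Egr1 at 3.04 (SE 2.26) and Fosb at 2.12 (SE 1.57), and each rests on 1 dim array. Without KO replicate 2 Egr1 stood at -0.30 and Fosb at 0.36, and without WT replicate 2 Dusp1 stood at 1.91. Jund stood at 1.20, Junb at 0.48, Ier2 at 0.30, Nr4a1 at 0.03 and Atf3 at -0.29. The adjusted p was 0.995 or above for all 10, and 0 of 22897 genes passed (0%, 3.96% with an unadjusted p under 0.05, 1.98% in each direction). Ier2 was the only member whose KO arrays both lay above both WT arrays, against 16.9% of all genes, and 0 members had both below, against 9.13%.

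The difference between the KO effects in secondary and primary recipients was tested as an interaction. For Fos it was 5.99 on the log2 scale (SE 2.93, limma unadjusted p = 0.0677) and for Ier2 it was -3.17 (SE 1.44, unadjusted p = 0.0822). Both had an adjusted p of 0.9999, and 0 of 22897 genes passed (0%, 3.74% with an unadjusted p under 0.05), so an effect particular to secondary recipients was not shown for either gene. Over both kinds of recipient, Fos had a relative log2 change of 3.37 in KO against WT (SE 1.75, limma adjusted p = 0.851), with 2 of 4 KO arrays lit. That comparison passed 0 genes (0%, 4.68% with an unadjusted p under 0.05), and 0 members had KO and WT arrays that did not overlap, against 1.31% of all genes higher and 0.489% lower.

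**Figure D4:**
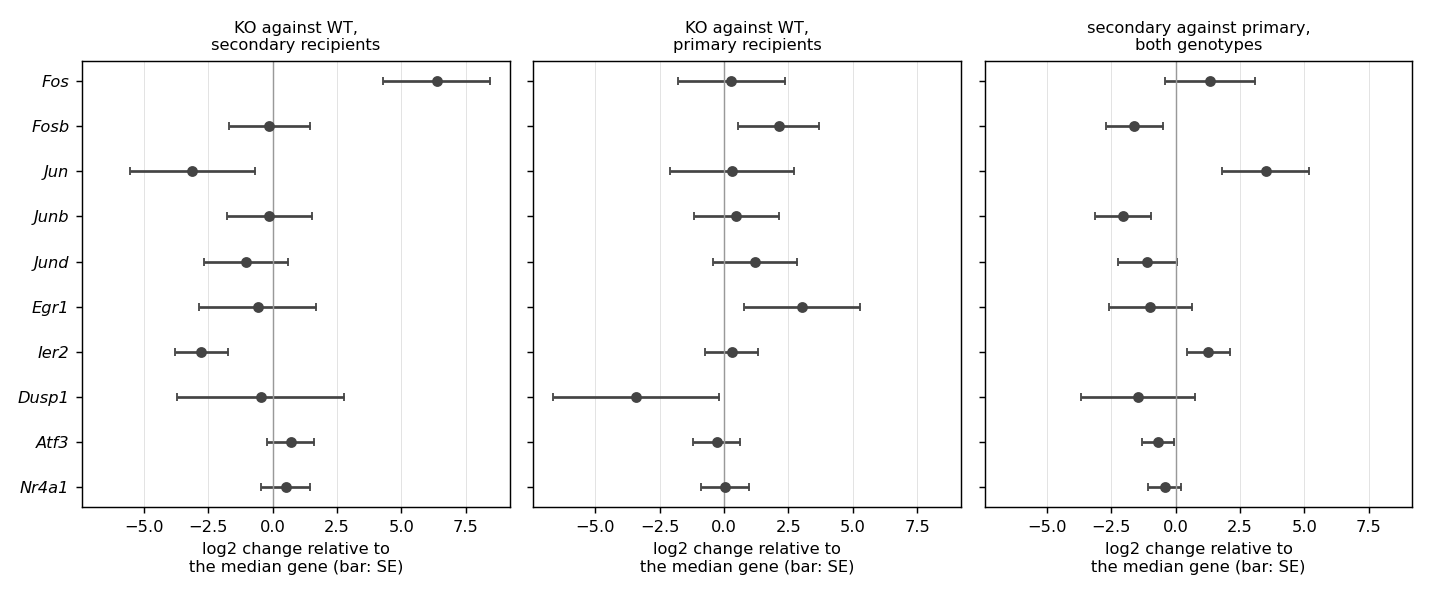
Log2 change of each of the 10 genes relative to the median gene, for KO against WT in secondary recipients, KO against WT in primary recipients, and secondary against primary recipients over both genotypes; points are limma estimates from 2 arrays a group (4 a side in the last panel) and bars are 1 SE. Fos in secondary recipients stands at 6.38 and Dusp1 in primary recipients at -3.42 with an SE of 3.23, and no member passed the adjusted threshold; values of Fos and Jun include arrays at background.

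Cells of secondary and primary recipients were compared within WT, where all 4 arrays shared a slide. Jun and Ier2 were the members whose secondary arrays both lay above both primary ones, against 15.3% of all genes. Jun entered the test only through these secondary arrays, so its separation and its p-value are no independent evidence of a change. Jun was at least 5.18-fold higher in secondary recipients, and at least 10.3-fold relative to the median gene, which stood 0.99 lower there, with a limma adjusted p of 0.423. With each array left out in turn the first bound ran from 1.82-fold, without WT replicate 1 of primary recipients, to 14.8-fold, without WT replicate 2 of primary recipients. Ier2 had a relative log2 change of 2.98 (SE 1.02, limma adjusted p = 0.418), higher on 2 of 2 arrays. In the other direction 6 members (Fos, Fosb, Junb, Jund, Atf3 and Nr4a1) had lower scaled levels on both secondary arrays, against 40.1% of all genes, and Fos was at background on all 4. The test passed 0 genes in WT (0%, 12% with an unadjusted p under 0.05).

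Within KO, where recipient and slide cannot be told apart, Fos was at least 2.88-fold higher in secondary recipients, and at least 4.15-fold relative to the median gene (limma adjusted p = 0.715). That bound rests on 1 array, since without KO replicate 2 of secondary recipients the Fos level lay below it and gave no fold, and none was had without KO replicate 1 of primary recipients either. It was 18.0-fold without KO replicate 1 of secondary recipients. Fos entered the test only through the KO arrays of secondary recipients. Jun had no fold there, since its KO mean in secondary recipients lay below the bound. The members with both secondary arrays below both primary ones by scaled level were Fosb, Junb, Atf3 and Nr4a1, 4 of 10 against 28.5% of all genes, and 0 lay above, against 12.7%. Relative to the median gene of each array Nr4a1 left the group, which then held 3 members against 27% of all genes. The test passed 0 genes in KO (0%, 6.04% with an unadjusted p under 0.05).

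Over both genotypes, secondary against primary recipients gave relative log2 changes of -2.04 for Junb (SE 1.09, limma unadjusted p = 0.0337, adjusted p = 0.249) and -0.69 for Atf3 (SE 0.63, unadjusted p = 0.0536, adjusted p = 0.264). The p-values refer to the changes before centring, -2.77 and -1.42, where the median gene stood at -0.73. Junb and Atf3 were the 2 members whose 4 secondary arrays all lay below the 4 primary ones by scaled level, against 12.7% of all genes, and 0 members lay above, against 3.16%. For Atf3 this includes a value at background, on KO replicate 2 of primary recipients. The unscaled Junb signals of secondary and primary recipients overlapped, as given above, and the change of Junb turned to 0.45 under quantile normalization. Jun stood at 3.51 (SE 1.69, adjusted p = 0.372), with 3 of 4 secondary arrays lit. The remaining changes were 1.35 for Fos, 1.27 for Ier2, -0.42 for Nr4a1, -0.98 for Egr1, -1.09 for Jund, -1.47 for Dusp1 and -1.60 for Fosb. No gene passed (0%, lowest adjusted p = 0.0576), and 19.2% of genes had an unadjusted p under 0.05.

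Other genes of the same pathway were read from lists, of which no member passed limma in any of these comparisons. Among 14 other AP-1 and ATF genes, KO against WT in secondary recipients gave 2 with an unadjusted p under 0.05 and lower in KO, and 0 higher, where 1.69% of all genes were lower and 3.69% higher, with a median relative change of 0.25. They were Atf2, a kinase-regulated ATF factor, with signals of 184 and 42.5 in KO against 2692 and 1396 in WT cells (log2 change -4.35, SE 1.24, limma adjusted p = 0.868), and Batf, an AP-1 factor of lymphocytes, with 539 and 22.1 in KO against 2507 and 3486 in WT cells (-4.66, SE 1.52, adjusted p = 0.903). Both groups were separated on each of these genes, as on 12.3% of all genes lower in KO by scaled level. In primary recipients the same list had a median of 0.51, with 1 gene higher and 0 lower at that threshold, which 1.98% of all genes reached in each direction.

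Among 7 other Egr and Nr4a genes and their co-repressors, 1 lay higher and 1 lower in KO cells of secondary recipients at an unadjusted p under 0.05, against 3.69% and 1.69% of all genes. Egr3, a relative of Egr1, had signals of 541 and 528 in KO against 92.6 and 154 in WT cells (log2 change 2.26, SE 1.13, limma adjusted p = 0.925). Nab2, a co-repressor of Egr proteins, had 2.62 and 1.75 in KO against 48.7 and 58.3 in WT cells, at least 4.28-fold lower in KO (adjusted p = 0.909). It entered the test only through these WT cells, and was at background on both KO arrays. In primary recipients 0 of the 7 reached that threshold, with a median of 0.61.

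Of 36 other immediate early response genes 33 were tested, and in secondary recipients 1 was higher and 0 lower in KO at an unadjusted p under 0.05, against 3.69% and 1.69% of all genes, with a median of -0.17. That gene was Npas4, an activity-induced factor known from neurons. It had 71.5 and 1542 in KO against 7.93 and 2.53 in WT cells of secondary recipients, and 8.77 and 3.17 in KO against 5.10 and 1.75 in WT cells of primary recipients. It entered the test only through KO cells of secondary recipients and was at background on the other 6 arrays. In secondary recipients it was at least 46.2-fold higher in KO (limma adjusted p = 0.820), a bound of 8.01-fold without KO replicate 2.

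In primary recipients the same list gave 1 gene higher and 1 lower in KO at that threshold, against 1.98% of all genes in each direction, with a median of 0.02. Sik1, a kinase induced by cAMP, had 776 and 6053 in KO against 25.5 and 2.05 in WT cells (log2 change 8.31, SE 2.65, limma adjusted p = 0.995). Zfp36l1, a factor that destabilises AU-rich mRNAs, had 21.5 and 1.76 in KO against 248.95 and 184 in WT cells (-5.03, SE 1.15, adjusted p = 0.995). Both genes separated the genotypes on these 4 arrays, as did 16.9% of all genes higher and 9.13% lower in KO by scaled level. Sik1 on WT replicate 2 and Zfp36l1 on KO replicate 2 were not well above background, so each change includes a value at background. Neither passed the adjusted threshold.

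Of 13 MAP kinase phosphatases and feedback inhibitors besides Dusp1, 10 were tested. In secondary recipients 0 were higher and 1 lower in KO at an unadjusted p under 0.05, against 3.69% and 1.69% of all genes, with a median of -0.51. Dusp2, a nuclear phosphatase of the family of Dusp1, had 197 and 111 in KO against 2009 and 1783 in WT cells (log2 change -3.58, SE 0.97, limma adjusted p = 0.838). It was lower on 2 of 2 arrays, as were Ier2 and 12.3% of all genes by scaled level. In primary recipients 2 were higher and 0 lower, against 1.98% of all genes in each direction, with a median of -0.28. They were Spry1, with 1511 and 10505 in KO against 65.6 and 16.5 in WT cells (7.005, SE 2.21), and Spry2, with 221 and 22.7 in KO against 19.5 and 5.91 in WT cells (2.81, SE 1.08), both feedback inhibitors of receptor tyrosine kinase signalling, with limma adjusted p = 0.995. The Spry2 value of 5.91 was not well above background.

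Of 24 upstream kinases and factors 23 were tested. In secondary recipients 2 were higher and 0 lower in KO at an unadjusted p under 0.05, against 3.69% and 1.69% of all genes, with a median of -0.85. Mapk8, which encodes the Jun kinase JNK1, had 429 and 2670 in KO against 6.33 and 74.4 in WT cells (log2 change 5.73, SE 1.83, limma adjusted p = 0.820). KO cells of secondary recipients were the only group in which both arrays were above background for Mapk8, and WT replicate 1 was not, so it entered the test only through that group. In primary recipients 1 was higher and 0 lower, against 1.98% of all genes in each direction, with a median of -0.24.

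The levels of all 9710 other genes well above background on all 8 arrays were compared with those of Egr1 and of the mean of the 10 members by the root mean square difference of centred scaled log2 levels. No such likeness is given for Fos and Jun, which were at background on 6 and 5 of the 8 arrays. Nr2c2ap was closest to Egr1 at 0.32, followed by Elac2 at 0.40, Stat3 at 0.55, Dynlrb1 at 0.61 and Hpf1 at 0.64, with a median of 2.35. The scaled Egr1 level was 7.74 on KO replicate 2 of primary recipients, a dim array, and -0.08 to 1.13 on the others. That array therefore weighs most in the likeness to Egr1. Closest to the mean of the 10 members were Gna15 at 0.30, LOC671203 at 0.34, Rapsn at 0.35, Cdc7 at 0.36 and Prpf8 at 0.36, with a median of 1.23. The mean of the members includes the values of Fos and Jun at background. These 8 arrays differ in brightness and share slides, which any such likeness also reflects.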

How the data were processed

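Expression was measured on 8 one-colour Agilent arrays of design 014868, read with Agilent Feature Extraction 10.5.1.1, with probe positions on mm8, as the file headers give them. The deposited scanner values are processed signal intensities after background subtraction, per the file headers. The deposited value table holds ratios of the same signals to the array's median, as found by setting both side by side, and served as an alternative. Control spots and outlier-marked spots were left out, spots of a probe averaged, and log2 signals scaled by the 75th percentile of each array. A gene was its brightest probe, and was tested if a probe of it cleared the scanner's background call on both arrays of a group. limma 3.58.1 (R 4.3.3) fitted the 4 groups with 4 residual degrees of freedom, or genotype and recipient additively with 5, two-sided, with Benjamini-Hochberg adjustment. Tables and figures used Python 3.11.15 with pandas 2.3.3 and matplotlib 3.10.9. Probe names were updated through RefSeq accessions or aliases, and 259 probes stayed unnamed.

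Printed changes are relative to the median gene of those tested, and p-values refer to the change before that centring. The members and lists were chosen with earlier results of these data known. All members are named, and of other lists up to 3 genes of lowest p per direction that cleared the same call on each array of the brighter group, printed where the unadjusted p was under 0.05. Some genes that these rules select are not reported here. Same-numbered replicates correlated in their deviations by 0.15 for KO and WT of primary recipients and by -0.03 to 0.01 for the other pairs of groups. Whether the numbers pair samples is not settled by this, and the main fit took the arrays as unpaired. On simulated data for KO against WT in secondary recipients (22897 genes) the test called 19 of 50 genes changed by 8 and 35 of 50 changed by 12 on the log2 scale, and 0 of 50 changed by 2 or by 4. For primary recipients it called 13 and 27 of 50 at the larger sizes. Unchanged genes called were 4 in the simulation for secondary and 2 in that for primary recipients. The simulated noise was independent between genes and arrays, without differences of brightness, slide or background. These counts therefore do not give the power on the real arrays. The number of arrays limits the precision.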

Additional observations from a re-analysis of the deposited data

How the results depend on the processing

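The 36 reported member changes gave 622 values under alternatives, of which 0 passed the threshold and 40 had the other sign. The cause was not tested. For KO against WT in primary recipients, normexp background gave -0.18 for Fos, -0.16 for Jun and 0.024 for Atf3. Quantile normalization gave -0.32, -0.26 and, for Nr4a1, -0.0049, and no filter gave Nr4a1 -0.092. The mean over probes gave Junb -0.33. Without both dim arrays Junb stood at -0.044, Jund at -0.66, Egr1 at -1.27 and Dusp1 at 0.44. Leaving out 1 array at a time gave -1.10 to 1.93 for Fos, -0.93 to 1.77 for Jun, -1.14 to 2.42 for Junb, -0.54 to 3.25 for Jund, -0.30 to 6.70 for Egr1, -0.16 to 1.07 for Ier2, -8.86 to 1.91 for Dusp1, -0.51 to 0.033 for Atf3 and -0.43 to 0.81 for Nr4a1. In secondary recipients it gave 3.79 to 9.004 for Fos, -6.65 to 0.47 for Jun, -0.36 to 0.14 for Junb, -2.19 to 0.16 for Jund, -1.27 to 0.0073 for Egr1, -3.71 to -1.80 for Ier2 and -1.29 to 0.26 for Dusp1. For secondary against primary recipients over both genotypes it gave -0.31 to 2.46 for Fos, -2.10 to 0.90 for Egr1 and -3.39 to 0.94 for Dusp1. There, quantile normalization gave Junb 0.45, and without both dim arrays Egr1 stood at 0.48 and Dusp1 at 2.02. Slide as a block could be fitted only there, and gave -1.51 for Fos, 0.20 for Jund and 1.01 for Egr1. Each KO group lay on a slide of its own, so these values come from the WT arrays alone and equal the change within WT. The number of genes past the threshold in that comparison, 0 as reported, was 1 with normexp, 206 with quantile normalization, 367 with the percentile over detected probes, 16 with the mean over probes, 38 with a variance trend and 76 without both dim arrays, with 0 members in each. For KO against WT in primary recipients it ran from 0 to 542, with 542 without WT primary replicate 1, again with 0 members. The replicate number as a block left 0 genes past the threshold in all 7 comparisons and turned no member. Fos and Jun at background have only bounds, which limits every change printed for them.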

Other observations

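Between secondary and primary recipients, 19 of 23 tested upstream kinases and factors of the immediate early response lay above the median gene, with a median relative log2 change of 1.21 and 0 past the adjusted threshold. At an unadjusted p under 0.05, which 19.2% of all genes reached, 2 were higher (Elk4 and Mapk14) and 1 lower (Rps6ka1). Elk4, a serum response cofactor, had signals of 697 and 268 in KO and 1263 and 1177 in WT cells of secondary recipients, against 5.02 and 1.82 in KO and 247 and 1.73 in WT cells of primary recipients (log2 change 4.48, SE 1.06, limma adjusted p = 0.219). Mapk14, the kinase p38 alpha, had 3364 and 100 in KO and 2888 and 4118 in WT cells of secondary recipients, against 30.1 and 5.92 in KO and 87.9 and 16.9 in WT cells of primary recipients (3.95, SE 1.04, limma adjusted p = 0.248). Its value of 5.92 was not well above background. Rps6ka1, a kinase activated by ERK, had 3407 and 2838 in KO and 4167 and 3311 in WT cells of secondary recipients, against 6051 and 953 in KO and 3316 and 1119 in WT cells of primary recipients (-1.38, SE 0.70, adjusted p = 0.249). Spred2, an inhibitor of MAP kinase signalling, had 473 and 1391 in KO and 1173 and 1538 in WT cells of secondary recipients, against 2.51 and 1.88 in KO and 47.9 and 1.77 in WT cells of primary recipients (5.83, SE 1.03, adjusted p = 0.103). Elk4 and Spred2 entered the test only through the groups of secondary recipients, in which they had to be higher, and on 3 of 4 arrays of primary recipients they were at background. Jdp2, a repressor of AP-1, lay in the other direction at -2.40 (SE 0.98, adjusted p = 0.243), as did Fosl2, a Fos relative, at -1.04 (SE 0.72, adjusted p = 0.251). The markers of other cells and the brightness of the arrays moved with the same comparison, and their part was not tested.

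Heat shock genes, which also respond to the handling of cells, were read beside the members. Their summed signal over the 8 of 9 listed genes with a probe was 51362 and 26204 in KO and 62425 and 58398 in WT cells of secondary recipients, against 37013 and 240 in KO and 9568 and 78695 in WT cells of primary recipients. Of 7 tested, 0 passed in any comparison. The median change of KO against WT was -0.35 in secondary and -0.63 in primary recipients, where 1 was higher at an unadjusted limma p under 0.05. Between secondary and primary recipients over both genotypes, 6 lay above the median gene and 1 below, with a median of 0.92. At that threshold 1 was higher and 0 lower, where 19.2% of all genes reached it in either direction.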
